A study of Mus musculus with 2 samples.

Results

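The genes described here are 10 markers of the naive embryonic stem cell: Dppa2, Dppa3, Dppa4, Dppa5a, Tcl1, Fbxo15, Zfp42, Utf1, L1td1 and Tfcp2l1. They were taken by symbol from the deposited counts of protein-coding genes, and all 10 were among the 15127 genes listed. Poly(A) RNA came from female embryonic stem cells of the pSM44 line, made from an F1 cross between 129 and castaneus mice. In this line Xist, the RNA that silences an X chromosome, is expressed from its own locus on the 129 allele through a tetracycline-inducible promoter. The 2 libraries formed 1 group, treated with doxycycline at 2 μg/mL for 24 h in serum-free 2i/LIF medium. The counts were a single column, and the sources used here do not say whether it pooled both libraries. Each gene therefore had 1 value with no replicate error, and no condition, clone or untreated culture was compared. In bulk RNA, fewer cells expressing a gene and less RNA per cell cannot be told apart.

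Naive pluripotency is the state of the inner cell mass of the blastocyst. In culture it is held by the cytokine LIF, which acts through Stat3, and by inhibitors of the kinases Mek and Gsk3. The genes described here are a mixed group that is switched on in that state, and several are also known from oocytes or primordial germ cells. Tfcp2l1, Zfp42, Utf1, Dppa2 and Dppa4 encode proteins of the nucleus that bind DNA or chromatin. Dppa5a and L1td1 encode RNA-binding proteins, the latter derived from a LINE-1 retrotransposon, and Dppa3, Tcl1 and Fbxo15 encode regulators that act by binding other proteins. Of the 10, 8 stand in the list of 23 genes used here for the candidate factors that were screened when induced pluripotent stem cells were made.

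Promoter sequences of Zfp42, Tfcp2l1 and Utf1 are shown because they carry contrasting sets of known promoter motifs while their genes all ranked among the highest 1000 of the table. RefSeq windows (GRCm38.p6) run from 250 bases before the start position they use for the gene to 50 after it. Of the 10 genes, 5 had one: Tfcp2l1, L1td1, Utf1, Zfp42 and Tcl1. Distances to motifs count from the start of the window's gene, which for L1td1, Utf1, Zfp42 and Tcl1 differs from the GENCODE M21 position given further on. Dppa2, Dppa3, Dppa4, Dppa5a and Fbxo15 were not matched. The sequences are written 5′ to 3′ on the strand of the gene. Capitals mark matches on either strand to the octamer ATTTGCAT, which Oct4 binds, to the TATA box TATAAA, to the CCAAT box, or to the GC box, written GGGCGG.
The window of Zfp42 was chr8:43306960-43307259, minus strand.
Zfp42: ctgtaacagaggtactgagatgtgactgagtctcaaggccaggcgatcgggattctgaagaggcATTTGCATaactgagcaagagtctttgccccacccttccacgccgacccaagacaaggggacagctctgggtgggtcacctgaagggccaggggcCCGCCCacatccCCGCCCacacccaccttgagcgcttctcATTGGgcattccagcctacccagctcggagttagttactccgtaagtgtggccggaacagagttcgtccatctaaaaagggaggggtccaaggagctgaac
The window of Tfcp2l1 was chr1:118627695-118627994, plus strand.
Tfcp2l1: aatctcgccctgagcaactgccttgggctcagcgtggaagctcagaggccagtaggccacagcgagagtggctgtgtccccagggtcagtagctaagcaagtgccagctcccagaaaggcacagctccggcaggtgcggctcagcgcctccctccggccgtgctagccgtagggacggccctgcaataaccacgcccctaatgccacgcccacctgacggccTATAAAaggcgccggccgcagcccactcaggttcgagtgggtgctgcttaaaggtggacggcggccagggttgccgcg
The window of Utf1 was chr7:139943606-139943905, plus strand.
Utf1: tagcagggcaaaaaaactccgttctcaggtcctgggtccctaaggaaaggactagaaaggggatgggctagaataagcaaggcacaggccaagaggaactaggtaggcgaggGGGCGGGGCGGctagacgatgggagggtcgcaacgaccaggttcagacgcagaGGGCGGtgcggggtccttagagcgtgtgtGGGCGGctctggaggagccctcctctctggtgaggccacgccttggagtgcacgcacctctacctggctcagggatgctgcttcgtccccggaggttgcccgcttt
The octamer lay 186 bases before the start of Zfp42, and 1.55% of 20150 windows of annotated protein-coding genes held it. Zfp42 also had CCAAT, on the opposite strand 51 bases before its start (37.8% of windows), and GC boxes that began 91 and 79 bases before it (47.8% of windows). Tfcp2l1 had TATAAA 28 bases before its start, a motif in 12.1% of windows, and it had none of the other motifs. Utf1 had 4 GC boxes, at 138, 133, 85 and 56 bases before its start, of which the pair farthest upstream overlapped. Tcl1 had GC boxes at 64 and 54 bases before its start, and L1td1 had no match. In GENCODE M21, Utf1 and Tcl1 begin farther upstream, so the GC box of each nearest the start lies inside the M21 gene. None of the 5 windows held the Esrrb half-site AAGGTCA (3.97% of windows) or TTCNNNGAA, a pattern bound by Stat3 (7.74%).

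All 10 genes were well expressed, but over a wide range that Dppa5a set apart. All were at CPM 1 or more (CPM is the count scaled by the total of 10017978, so 11 counts reach CPM 1), a level reached by 80.1% of listed genes and by 55.1% of 21924 annotated protein-coding genes. At CPM 100 or more there were 9 of the 10, against 15.5% of listed genes. Tcl1 was the exception, at CPM 68.1. The median of the 10 was CPM 235, and that of all listed genes was 18.3. On the log2(CPM + 1) scale the medians differed by 3.61. The genes held 70882 counts together, a share of 0.708% (0.702 to 0.713 as an exact Clopper-Pearson 95% interval). The range of sampling error was small, with Poisson 95% half-widths from 0.903% of the value for Dppa5a to 7.58% for Tcl1. These intervals cover counting error only.

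**Figure D1:**
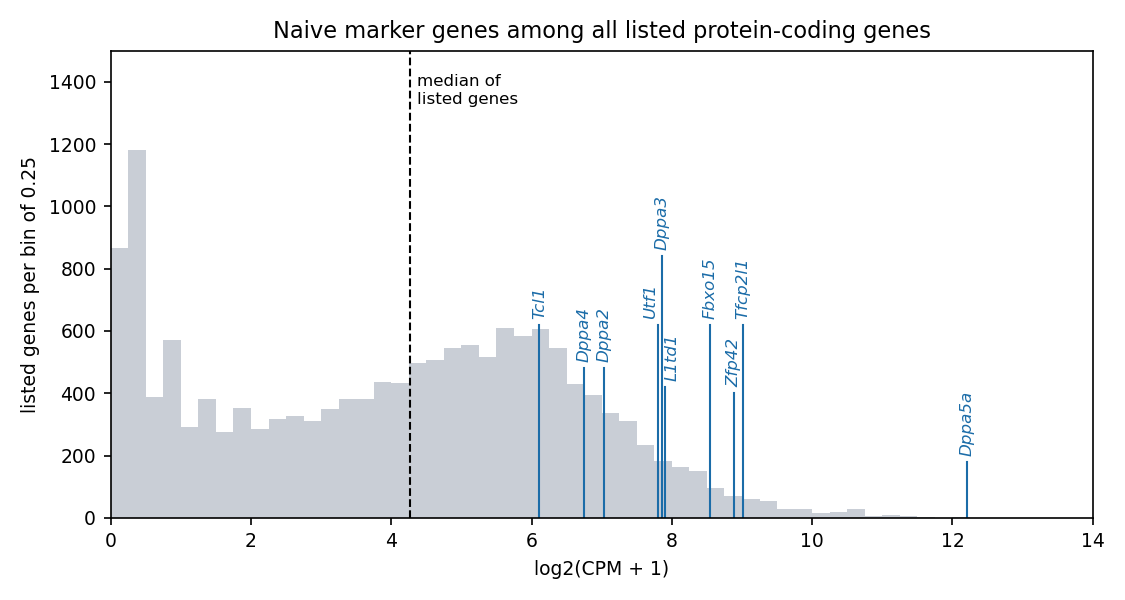
Histogram of log2(CPM + 1) over the 15127 listed protein-coding genes (bars, genes per bin of 0.25), with a blue line for each of the 10 naive markers and a dashed line at the median of all listed genes. All 10 lines stand to the right of the median, and Dppa5a stands alone near the upper end.

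Dppa5a, which encodes a small KH-domain protein also called Esg1, had 47245 counts, or CPM 4716 (Poisson 95% interval 4674 to 4759). It was the sixth of all listed genes by count (rank 6). It alone held 66.7% of the counts of the 10 genes (Clopper-Pearson 95% interval 66.3 to 67.0), and the other 9 summed to 23637. Its exons are short, at 619 bases against a median of 4238 bases for listed genes with an annotated length, so its level per length was more extreme still. It had 76325 counts per kilobase of exon and ranked 1 of 15050 genes, ahead of the elongation factor gene Eef1a1 with 47176. Annotated transcripts of 9 other genes, 8 of them pseudogenes, matched its transcript at 90% identity or more over at least 250 bases. The highest identity was 96.9%, and the matches covered 86.4% of the transcript. The ninth was Pigp, a gene of glycolipid anchor synthesis with 639 counts, where 417 bases matched at 95.9%; it was named after its value was seen. The sources used here do not say how reads shared with such copies were counted, and their part in the value of Dppa5a was not tested.

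The transcription factor genes Tfcp2l1 and Zfp42 followed by count. Tfcp2l1, a factor induced by LIF and Stat3, had 5178 counts (CPM 517, interval 503 to 531, rank 261). Zfp42, better known as Rex1, had 4742 counts (CPM 473, interval 460 to 487, rank 290). The counting intervals of the pair did not overlap, yet their order turned once length was taken into account. Tfcp2l1 has 9438 bases of exon and came to 549 counts per kilobase, whereas Zfp42 with 1881 bases came to 2521.

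Fbxo15, L1td1, Dppa3 and Utf1 formed the middle of the range. Fbxo15, the substrate-binding F-box subunit of a ubiquitin ligase and a classic reporter locus for reprogramming, had 3747 counts (CPM 374, interval 362 to 386). L1td1 had 2380 counts (CPM 238, interval 228 to 247). Dppa3, also called Stella, is a regulator of DNA methylation in the egg and early embryo and had 2328 counts (CPM 232, interval 223 to 242). Utf1, a chromatin-bound factor and a target of Oct4 and Sox2, had 2219 counts (CPM 222, interval 212 to 231). L1td1 and Dppa3 had overlapping intervals, and so did Dppa3 and Utf1.

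Dppa2, Dppa4 and Tcl1 were the lowest of the 10. Dppa2 and Dppa4 encode SAP-domain proteins that bind each other and mark promoters of developmental genes. Dppa2 had 1299 counts (CPM 129.7, interval 123 to 137) and Dppa4 had 1062 (CPM 106, interval 99.7 to 113). Tcl1, a coactivator of the kinase Akt, had 682 counts (CPM 68.1, interval 63.1 to 73.4) and ranked 3506. It still exceeded 76.8% of listed genes by count.

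Per kilobase of exon the genes took another order, since their exonic lengths ran from 619 to 9438 bases. After Dppa5a came Dppa3 with 2609.9 counts per kilobase and Zfp42 with 2521, whose counting intervals overlapped. Utf1 followed with 1808, Fbxo15 with 1115, L1td1 with 749.8 and Dppa4 with 639. Tfcp2l1 with 549 and Dppa2 with 531 could not be told apart by their counting intervals, and Tcl1 was lowest with 369.6. At or above 1000 counts per kilobase there were 5 of the 10, against 3.34% of 15050 listed genes with an annotated length. The highest value was 206 times the lowest, but the second highest was only 7.06 times the lowest. The median of the 10 was 933 counts per kilobase and that of all genes was 38.04. Even Tcl1 exceeded 89.6% of genes on this scale. Among genes next in level, Dppa3 lay between the copper chaperone gene Atox1 and the respiratory chain gene Ndufa1, and Zfp42 between Eif3h, of translation initiation, and the small GTPase gene Arf1. Tcl1 lay just above the histone demethylase gene Kdm1a.

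**Figure D2:**
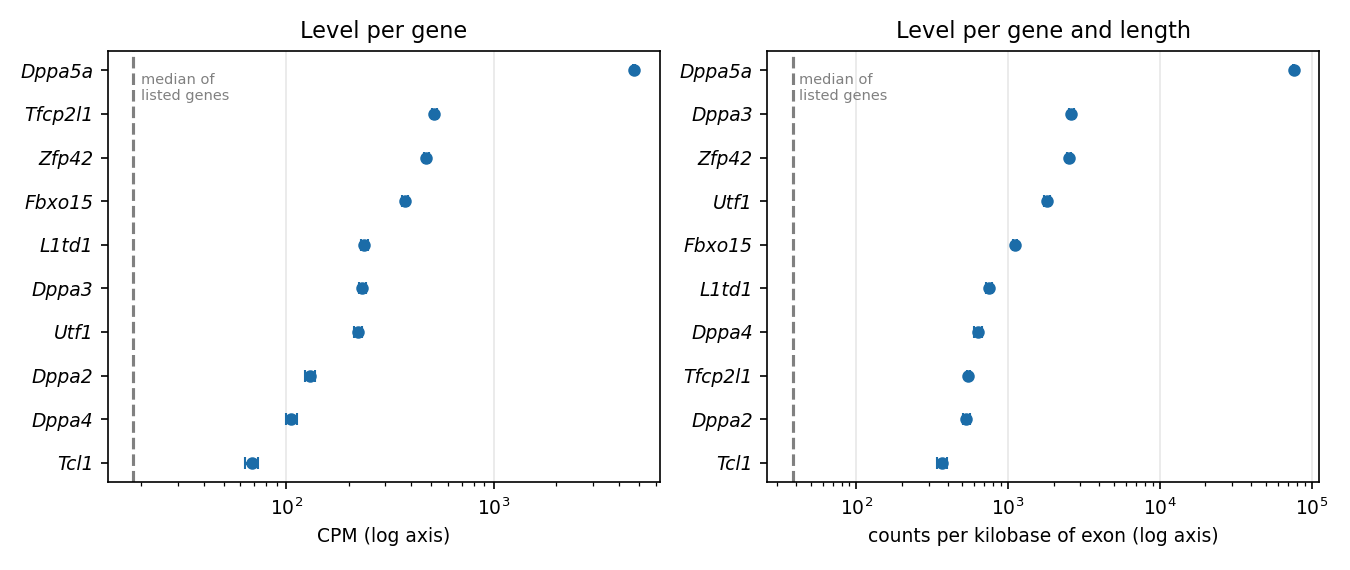
CPM (left) and counts per kilobase of exon (right) of the 10 genes, each on a log axis and sorted by its own scale, with Poisson 95% intervals as bars and the median of listed genes as a dashed line. Tfcp2l1 stands after Dppa5a on the left and near the bottom on the right, whereas Dppa3 rises to the place after Dppa5a.

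The paired genes Dppa2 and Dppa4 lie next to each other on chromosome 16, on the same strand and 9.67 kb apart (48303908 to 48319723 and 48283733 to 48294237, GRCm38). Dppa2 had 1.22 times the counts of Dppa4, but per kilobase of exon Dppa4 was higher, at 1.20 times the level of Dppa2. The ratio of Dppa2 to Dppa4 per kilobase was 0.831 (exact 95% interval from counting 0.765 to 0.902). Both have near-identical processed pseudogenes, 6 for Dppa2, with up to 99.3% identity, and 2 for Dppa4, with up to 99.4%. The proteins are known to activate Dux and, through it, genes of the 2-cell embryo. Of 8 genes of that program that were looked up, 6 were listed and none reached CPM 1. That level was reached by 55.1% of annotated and 80.1% of listed genes. Zscan4d had 5 counts, Usp17la 4, Zscan4c 3, Zscan4f and Zfp352 2 each and Tcstv3 1, while Duxf3 and Tcstv1 were not listed. Most of these are known to have near-identical copies, which were not sought here, so their single values are uncertain.

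Relatives in sequence had fewer counts per kilobase than the markers wherever they were listed. Zfp42 arose from a retrotransposed copy of Yy1, which encodes a broadly expressed zinc finger factor. Zfp42 had 19.3 times the level of Yy1 per kilobase (interval 18.0 to 20.8), with 837 counts for Yy1. Yy2, another such copy, was not listed and its exons lie wholly under another gene. Tfcp2l1 exceeded the related genes Ubp1 14.7-fold (12.7 to 17.2), Tfcp2 19.9-fold (17.4 to 22.9), Grhl1 25.5-fold (21.3 to 30.9) and Grhl2 85.9-fold (65.9 to 114) per kilobase. Of the exonic bases of Ubp1, 56.5% lie under other annotated genes, and their part in its low count was not tested. Grhl3, an epithelial transcription factor gene, came closest with 743 counts and a ratio of 2.06 (1.91 to 2.23).

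Within the family of Dppa5a, Ooep, a gene of the oocyte's subcortical complex, was the main listed relative. It had 1757 counts, and Dppa5a exceeded it 92.9-fold per kilobase (interval 88.6 to 97.5). Ooep lies 7.93 kb from Dppa5a, on the same strand. Of the remaining KH-domain relatives, Khdc1a had 1 count and Khdc1b was not listed. Khdc3 was also not listed, and 78.5% of its exonic length lies under another gene. Tcl1 stands beside a cluster of Tcl1b genes on chromosome 12, of which Tcl1b2 had 3 counts and Tcl1b1, Tcl1b3, Tcl1b4 and Tcl1b5 were not listed. Per kilobase the ratio of Tcl1 to Tcl1b2 was 155 (interval 52.8 to 753). Mtcp1, the remaining relative of Tcl1, was not listed, and 99.9% of its exonic length lies under another gene. In sum 4 of 4 markers with named relatives stood above every listed relative, while 8 of the 17 relatives were not listed. Each marker exceeded at least 89.6% of listed genes per kilobase, so this count says little that is particular to relatives.

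Of the genes whose products work with the markers, 9 of 9 reported reached CPM 1, and their median was CPM 117. Of all listed genes, 80.1% reached CPM 1, and the median was CPM 18.3. Uhrf1, the methylation maintenance factor that the Dppa3 protein binds, had 6420 counts, and Dnmt1, the methyltransferase that Uhrf1 guides, had 3913. Per kilobase Dppa3 was nevertheless 1.73 times the level of Uhrf1 (interval 1.65 to 1.82) and 4.92 times that of Dnmt1 (4.67 to 5.18). Tet3, the oxidase whose action on maternal DNA Dppa3 limits, had only 152 counts. The kinase genes Akt1 and Akt2 had 989 and 1123 counts, and per kilobase Tcl1 exceeded them 1.53-fold (1.39 to 1.69) and 2.35-fold (2.13 to 2.58).

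For Fbxo15, the adaptor gene Skp1a had 5707 counts and was higher than Fbxo15 per kilobase, 2.31-fold, although its exons lie wholly under another annotated gene. The scaffold gene Cul1 had 1169 counts and the RING subunit gene Rbx1 had 1519, and Fbxo15 exceeded them 3.85-fold (3.61 to 4.12) and 3.34-fold (3.15 to 3.55) per kilobase. L1td1 and the RNA-binding protein Lin28a, which are known to associate, were unlike in level. Lin28a had 76 counts, and L1td1 was 39.4 times as high per kilobase (interval 31.4 to 50.2). Upstream of Tfcp2l1, all 7 genes of LIF and Wnt signalling were at CPM 1 or more, against 80.1% of listed genes. The highest were Ctnnb1, which encodes beta-catenin and has 67.8% of its exonic bases under other genes, with 3339 counts, the kinase gene Jak1 with 1357 and Stat3 with 1054. The lowest was the receptor gene Lifr with 342.

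**Figure D3:**
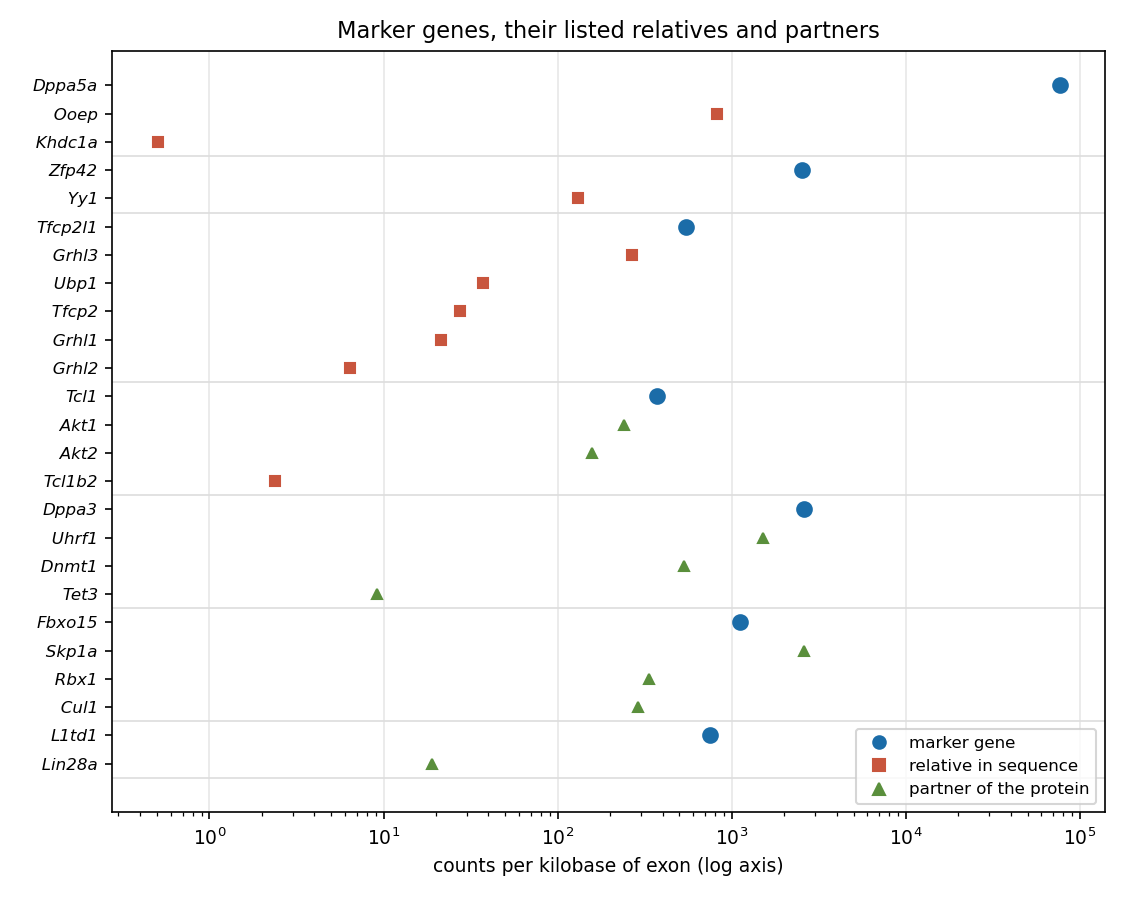
Counts per kilobase of exon (log axis) of 7 markers (blue circles), their listed relatives in sequence (red squares) and genes of partner proteins (green triangles), 1 point per gene. Skp1a is the only point shown to the right of its marker.

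Among 22 naive genes, the 10 markers and 12 further naive factors, the markers took places from 1 to 19 in the order per kilobase. Dppa5a came first, then Nanog with 4026 counts per kilobase and Klf2 with 2912, followed by Dppa3, Zfp42 and Utf1. Tfcp2l1, Dppa2 and Tcl1 stood at places 16, 17 and 19, and the lowest genes were Tbx3, Nr5a2 and Spic, with 276, 138 and 75.2. The median was 933 counts per kilobase for the markers and 638 for the other factors, while by CPM the medians were 235 and 228. All 12 of those factors were at CPM 1 or more and 10 at CPM 100 or more, against 80.1% and 15.5% of listed genes.

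Of the 15 reprogramming candidates that are not markers here, 13 were listed and 12 were at CPM 1 or more. That level was reached by 55.1% of annotated and 80.1% of listed genes. Nanog, Pou5f1 and Ctnnb1 were the highest, with 9026, 7100 and 3339 counts. Fthl17a was the lowest listed, with 9 counts, followed by Myc, a growth regulator, with 14. The unlisted candidates Khdc3 and Sox2 lie mostly under other annotated genes. The list median, over listed genes other than the markers, was CPM 142.

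The label of the cells was checked against markers of stem cells and of other cells a culture could hold. Of 10 pluripotency markers 9 were listed, with CPM from 145 to 901. Sox2 was not listed, and its exons lie wholly under another annotated gene. Formative and primed genes summed to 2445 counts over 10 genes. Of these, 8 were at CPM 1 or more, against 55.1% of annotated and 80.1% of listed genes, and none was at CPM 100 or more. Zic2 with 991 counts, Dnmt3b with 725 and Lef1 with 235 were the highest, and Fgf5 with 1 count was the lowest. Since Dppa3 and Ooep are known from the oocyte, germ cell genes were also examined, and 5 of 10 were at CPM 1 or more. Dazl, a germline RNA-binding protein gene, had 2909 counts. The oocyte genes Gdf9, Figla and Nobox had 3, 3 and 1, Zp3 had 50, and Bmp15 was not listed. Ddx4 had 121 counts, Nanos3 78 and Mael 21, while Sycp3 was not listed and its exons lie wholly under another gene. Primitive endoderm and trophoblast genes each had 4 of 6 at CPM 1 or more, none above CPM 12.7. For feeder fibroblasts 3 of 6 reached CPM 1, with Thy1 at 267 counts, Acta2 at 2, and Col3a1 and Dcn not listed. The shares of germ cell, primitive endoderm, trophoblast and fibroblast genes at CPM 1 or more lie near the 55.1% of annotated genes.

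**Figure D4:**
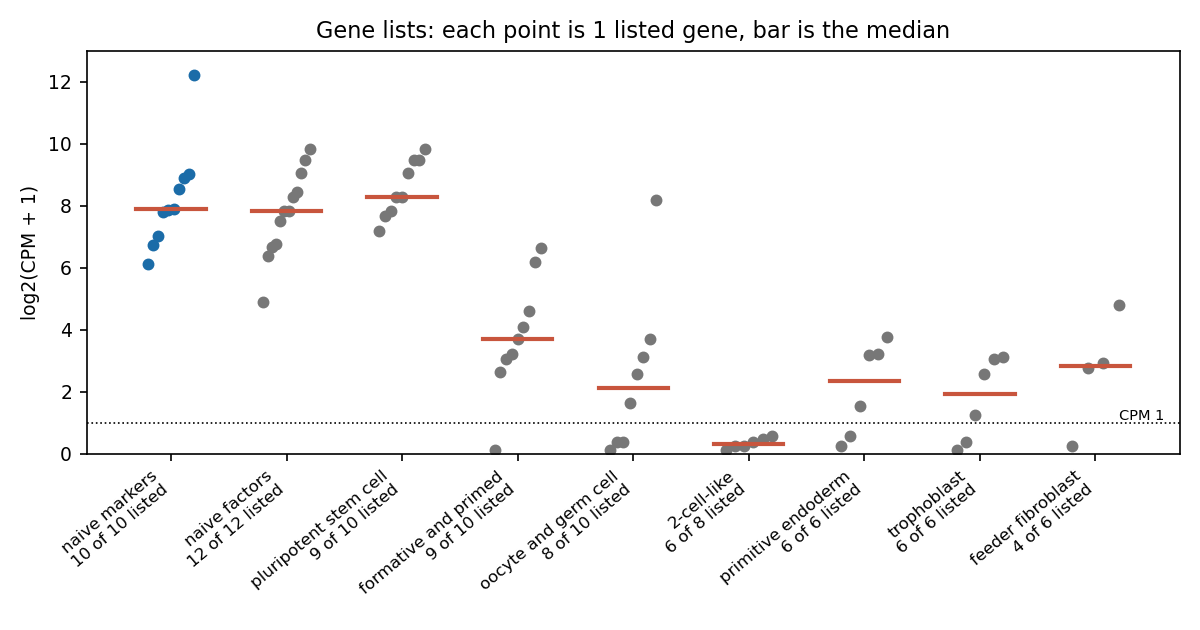
Each point is log2(CPM + 1) of 1 listed gene, by gene list, with the list median as a red bar and a dotted line at CPM 1. The naive markers (blue) overlap in height with the naive factors and pluripotency markers, except for Dppa5a above them, and the 2-cell-like genes all lie below the dotted line.

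Around the markers in the genome, expression of the adjacent protein-coding genes was mixed. Of 18 adjacent genes other than the markers themselves, 13 were listed, 12 of them at CPM 1 or more and 4 at CPM 100 or more. Over all genes, CPM 1 was reached by 55.1% of annotated and 80.1% of listed genes, and CPM 100 by 15.5% of listed genes. Of the 13 listed adjacent genes, 12 had fewer counts per kilobase than the marker beside them, and Nanog, beside Dppa3, had more. Each marker exceeded at least 89.6% of all listed genes on that scale, so the count says nothing particular to neighbours. Dppa3 (chromosome 6, 122626410 to 122630272) has Gdf3, a growth factor gene with 1455 counts, 16.3 kb to its left, and Nanog 77.2 kb to its right. Dppa3, Gdf3 and Nanog belong to a known cluster of pluripotency genes. Utf1 (chromosome 7, 139943789 to 139945112) lay 2.25 kb from Kndc1, a gene of the same strand with 17 counts. Dppa5a (chromosome 9, 78367052 to 78368177) lay 11.3 kb from Gsta2, a glutathione transferase gene with 9 counts. Zfp42 (chromosome 8, 43295063 to 43306980) had Triml2, with 1787 counts, on the left and the unlisted Adam26b on the right. Tcl1 (chromosome 12, 105216750 to 105222793) stood between the unlisted Tcl1b4 and Tunar, which had 66 counts.

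Remaining positions (GRCm38) were chromosome 1, 118627945 to 118685168, for Tfcp2l1, chromosome 4, 98726734 to 98738480, for L1td1 and chromosome 18, 84934782 to 84981473, for Fbxo15. Exons of 9 of the 10 markers were free of overlap with any other annotated gene. The exception, Tfcp2l1, had 1.38% of its exonic bases under a small nuclear RNA gene. Near-identical annotated copies are a separate matter: beside Dppa5a, Dppa2 and Dppa4, they were found for Dppa3 (2 copies, identity up to 98.2%), Zfp42 (1 copy) and L1td1 (1 copy). None was found for Tcl1, Fbxo15, Utf1 or Tfcp2l1 at 90% identity over 250 bases.

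The 5 promoter windows shared a middle CpG content. The ratio of observed to expected CpG was 0.441 in Zfp42, 0.462 in Tcl1, 0.559 in L1td1, 0.615 in Utf1 and 0.656 in Tfcp2l1, against a median of 0.598 over 16522 genes. G+C content ran from 56.7% in Tcl1 to 65.3% in Tfcp2l1. Genes with a ratio from 0.4 to below 0.8 were at CPM 1 or more in 73.5% of cases, compared with 20.3% below 0.4 and 88.5% at 0.8 or more. Within that middle class, whose listed genes had a median of 41.2 counts per kilobase, Zfp42 exceeded 98.9% of genes, Utf1 98.4%, L1td1 95.5%, Tfcp2l1 93.3% and Tcl1 89.9%. These are positions of single genes and no test was made of them.

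**Figure D5:**
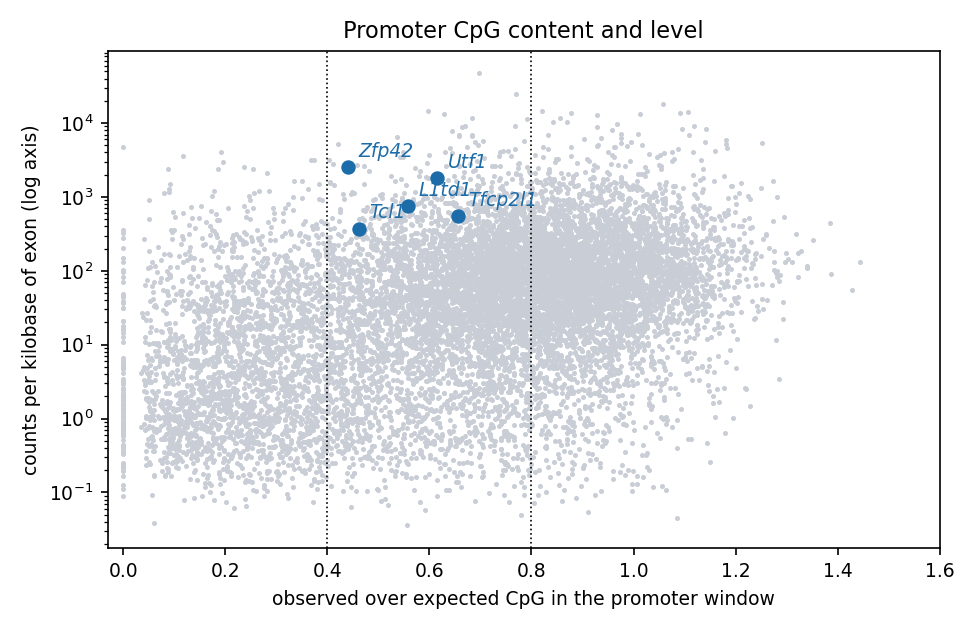
Observed over expected CpG in the promoter window (horizontal) against counts per kilobase of exon (vertical, log axis), 1 grey point per listed gene with a window and blue points for the 5 matched markers; dotted lines mark the class limits 0.4 and 0.8. The markers lie between the lines and near the upper edge of the cloud.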

How the data were processed

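The deposited file held the authors' raw counts for protein-coding symbols, in 1 column without a library name, and its lowest count was 1. The submitters' processing notes name Trimmomatic 0.38, HISAT2, SAMtools and, from Subread 1.6.4, featureCounts, with build GRCm38.p6. The sources used here do not give the annotation release, strand setting or counted feature. Counts were scaled by the total of 10017978 to CPM. Symbols were matched to GENCODE M21 (GRCm38), 14896 directly and 154 by RefSeq synonyms, which gave union exon length, gene span and overlap. Copies were sought with blastn 2.17.0 among M21 transcripts. Counts had exact Poisson intervals, shares Clopper-Pearson intervals and ratios exact conditional binomial intervals, all at 95%, for counting error only. With 1 column no test between groups was possible. Lists were described by counts and medians, and the functions were tested on simulated data. The members and lists were chosen with earlier results of these data known.

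The text names every marker and relative, all partners but 1 that is not reported here, up to the 3 highest and the lowest genes of other lists, adjacent genes and genes next in level, not all of them. Other list members, the 2-cell-like and oocyte genes among them, were named after their values were seen. The alternatives were other minimums, a pseudocount of 0.1 in place of 1, other length scales, other gene sets and a total without ribosomal protein genes. Python 3.11.15, numpy 2.4.6, pandas 2.3.3, scipy 1.17.1 and matplotlib 3.10.9 were used.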

Additional observations from a re-analysis of the deposited data

How the results depend on the processing

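At CPM 0.5, CPM 5 or 10 counts, and with a total that left out 80 ribosomal protein genes, all 10 markers and 9 of 10 pluripotency markers still passed. That total raised every CPM by a factor of 1.11. CPM 1 was reached by 80.1% of listed genes, and the shares of all genes at the other minimums are not given here. Passing such low minimums therefore says little that is particular to the markers. The median difference of 3.61 (log2) between the markers and all listed genes was 3.60 without Dppa5a, 3.68 with a pseudocount of 0.1, 3.43 among genes with exonic overlap of at most 0.1 and 2.89 among genes at CPM 1 or more. It was 4.48 per kilobase of exon and 5.997 with unlisted annotated genes at 0. The share of Dppa5a in the counts of the 10 genes rose from 66.7% to 87.5% per kilobase of exon and 92.6% per kilobase of gene span. All 4 markers with relatives stayed above them by count and per kilobase of the longest transcript. Ranks depended on the length used: Fbxo15 ranked 404 by count, 438 per kilobase of exon, 349 per kilobase of the longest transcript and 1763 per kilobase of span. Per kilobase of the longest transcript Fbxo15, with 1962 counts, stood above Utf1, with 1808. Dppa4 ranked above Dppa2 on all 3 length scales and below it by count. Leaving out a library was not run, since the counts had 1 column. No paired analysis was possible because there was 1 group and the column carried no replicate number. Depth limited the lowest genes: a listed gene with 1 to 5 counts has a wide counting interval.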
